A study of Homo sapiens with 6 samples.

Results

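The HOX cluster genes are the 39 protein-coding genes whose symbols consist of HOXA, HOXB, HOXC or HOXD and a number, and they were taken from the 20033 protein-coding genes of the GENCODE annotation of hg38 by symbol alone. Binding of DPF3a, SMAD4 and p300 at these genes was mapped by chromatin immunoprecipitation followed by sequencing (ChIP-seq) in the renal carcinoma line 786-O (clear cell type). A peak is a region where the reads of a library pile up above the local background, and its summit is the base with the most reads. A peak was assigned to a HOX gene when its summit fell within the gene body or at most 5000 bp upstream of it. Peaks along each cluster, from its first to its last HOX gene plus 20000 bp on either side, were also taken, which gave 32 DPF3a, 71 SMAD4 and 20 p300 peaks out of 51530, 46367 and 20380 in the lists.

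DPF3 belongs to SWI/SNF, which remodels chromatin, and DPF3a is its shorter form. It carried an HA tag, was overexpressed, and was pulled down with an HA antibody from chromatin fixed with the protein crosslinker DSG and formaldehyde. SMAD4, the partner of receptor-activated SMADs in TGF-β and BMP signalling, and p300, an enzyme that acetylates histones, were pulled down with antibodies to the proteins themselves after fixation with formaldehyde alone. The labels name no treatment and do not say whether the cells of the SMAD4 and p300 libraries also overexpressed DPF3a. Each factor had 2 replicate libraries (6 in all) and 1 peak list made from both, so no spread between replicates can be given and no test was made. The differences between HOX genes and the rest of a list are therefore descriptions. The antibodies differed between factors, the fixation of DPF3a differed from that of SMAD4 and p300, and library depth was not measured. Values were therefore compared within a list only. Renal markers and markers of other cell types were checked in the same lists. Of 8 renal markers, 6 had a DPF3a peak, 6 a SMAD4 peak and 5 a p300 peak. By the same assignment, 65.8%, 72.3% and 51.6% of all protein-coding genes had one. The renal markers with peaks included EPAS1, PAX8, VIM, PAX2 and CDH2, whereas LHX1 had none. PTPRC, CD3E and ALB, markers of leukocytes and hepatocytes, had none either, but PECAM1 and RBFOX3, markers of endothelium and neurons, had peaks of all 3 factors. A peak is no measure of expression.

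HOX genes encode homeodomain transcription factors that give cells their position along the body axis. They lie in clusters in the order in which they are used, from the low-number genes of the hindbrain end to the high-number genes of the tail end, and each number (paralog group) recurs in several clusters. Polycomb complexes keep HOX genes silent, Trithorax complexes keep them active, retinoic acid opens the low-number end, and the genes of paralog group 11 are known for their part in forming the kidney.

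Sequences are shown for 6 sites around which the binding pattern of the clusters turned: the strongest SMAD4 peaks of the HOXA, HOXB and HOXD clusters, the strongest DPF3a peaks of the HOXB, HOXC and HOXD clusters, and a HOXB site with a retinoic acid repeat, the last of which was chosen after its values were seen. They run from 50 bp before the first to 50 bp after the last summit of the site, or 50 bp on both sides of the SMAD4 summit for HOXA3 and LINC03057, on the plus strand of hg38, and capitals mark exact matches to a consensus on either strand. The consensus sequences were TGACTCA or TGAGTCA for AP-1, TGTGGT or TGCGGT for RUNX, ACATTCC or GCATTCC for TEAD, and GGCGCC for the SMAD GC element. For the retinoic acid receptor the consensus was a direct repeat of 2 hexamers spaced by 5 bases. No marked match overlapped another.
HOXA3, chr7:27124293-27124393, an intron of HOXA3 and an exon of HOXA-AS2: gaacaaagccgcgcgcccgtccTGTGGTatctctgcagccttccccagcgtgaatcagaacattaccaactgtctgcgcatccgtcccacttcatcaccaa
LINC03057, chr17:48646752-48646852, an exon of this long non-coding RNA upstream of HOXB9: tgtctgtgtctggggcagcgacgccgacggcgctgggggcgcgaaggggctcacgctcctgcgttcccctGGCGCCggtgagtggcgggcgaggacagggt
HOXB1, chr17:48522244-48522407, downstream of HOXB1: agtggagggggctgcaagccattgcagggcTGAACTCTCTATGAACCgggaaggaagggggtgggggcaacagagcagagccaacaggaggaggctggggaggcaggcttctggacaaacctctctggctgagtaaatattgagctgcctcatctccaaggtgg
HOXB9, chr17:48637985-48638126, upstream of HOXB9: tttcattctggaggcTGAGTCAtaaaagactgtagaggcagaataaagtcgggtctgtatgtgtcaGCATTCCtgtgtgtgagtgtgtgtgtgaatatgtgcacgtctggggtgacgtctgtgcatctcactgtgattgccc
HOXC4, chr12:54036965-54037121, an intron of the HOXC4 record: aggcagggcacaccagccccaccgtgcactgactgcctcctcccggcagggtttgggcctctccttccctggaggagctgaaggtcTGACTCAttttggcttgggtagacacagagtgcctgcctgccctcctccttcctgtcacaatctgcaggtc
HOXD12-HOXD11, chr2:176104341-176104544, an exon of a non-canonical HOXD11 transcript: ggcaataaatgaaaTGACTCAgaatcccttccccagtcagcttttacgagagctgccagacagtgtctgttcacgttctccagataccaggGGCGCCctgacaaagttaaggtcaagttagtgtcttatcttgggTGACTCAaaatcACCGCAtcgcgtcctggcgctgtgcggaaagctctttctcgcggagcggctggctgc
The HOXD12-HOXD11 site held a pair of AP-1 matches, a SMAD GC element and a RUNX match, whereas the LINC03057 site held a SMAD GC element and no AP-1 match.

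The share of HOX genes with a SMAD4 peak was above that of all protein-coding genes, while the shares with a DPF3a or p300 peak were below. A SMAD4 peak was assigned to 33 of the 39 genes (84.6%), against 72.3% of all protein-coding genes. A DPF3a peak was assigned to 21 (53.8%, against 65.8%) and a p300 peak to 17 (43.6%, against 51.6%). Peaks of each of the 3 lists were assigned to 12 HOX genes (30.8%, against 46.7%). Among these were HOXA3, HOXA4, HOXA5, HOXA6, HOXA9, HOXA10, HOXB7, HOXB9, HOXC4, HOXC6 and HOXD8, and 7 of the 12 were HOXA genes. No peak was assigned to HOXB1, HOXB13, HOXC5, HOXC12, HOXC13 or HOXD9. HOX genes are short, and among the 13869 protein-coding genes no longer than HOXB3, the longest HOX gene at 56043 bp, 65.8% had a SMAD4, 56.7% a DPF3a and 42.4% a p300 peak. Beside these genes the p300 share of HOX genes (43.6%) was no longer the lower one. Their DPF3a share (53.8%) was still lower, but by less. When each list was reduced to its 20380 peaks of highest score, 21 HOX genes had a SMAD4 peak (53.8%, against 58.9% of all protein-coding genes), 7 a DPF3a peak (17.9%, against 30.2%) and 17 a p300 peak (43.6%, against 51.6%), so that the SMAD4 share also lay below that of all genes. Without the 5000 bp upstream, 23 HOX genes had a SMAD4 peak (59.0%, against 59.5%). The higher SMAD4 share was thus not seen in the reduced list or without the upstream stretch. It was seen with scores above 100 (74.4%, against 68.1%) and over canonical transcripts (76.9%, against 70.8%).

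The clusters differed in how many of their genes were bound. In the HOXA cluster, 11 of 11 genes had a SMAD4 peak, 8 a DPF3a peak and 8 a p300 peak. In the HOXB cluster these were 8, 5 and 3 of 10 genes, and in the HOXC cluster 6, 4 and 2 of 9 genes. In the HOXD cluster 8 of 9 genes had a SMAD4 peak, 4 a DPF3a peak and 4 a p300 peak. HOXA was thus the cluster in which no gene was without a peak, and HOXC, with 3 such genes, was the one with most. Along the body axis, 7 of 8 genes of paralog groups 1 to 3, 14 of 15 genes of groups 4 to 8 and 12 of 16 genes of groups 9 to 13 had a SMAD4 peak. For p300 these were 5, 8 and 4 genes, and for DPF3a 4, 9 and 8 genes. HOXA3, with 8 DPF3a, 13 SMAD4 and 7 p300 peaks, had the most peaks of each factor. Its record spans 46400 bp and encloses HOXA4, HOXA5 and HOXA6, and the records of HOXB3, HOXB7, HOXC4, HOXC6 and HOXD3 are likewise long, so that 1 peak can count for several genes.

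**Figure D1:**
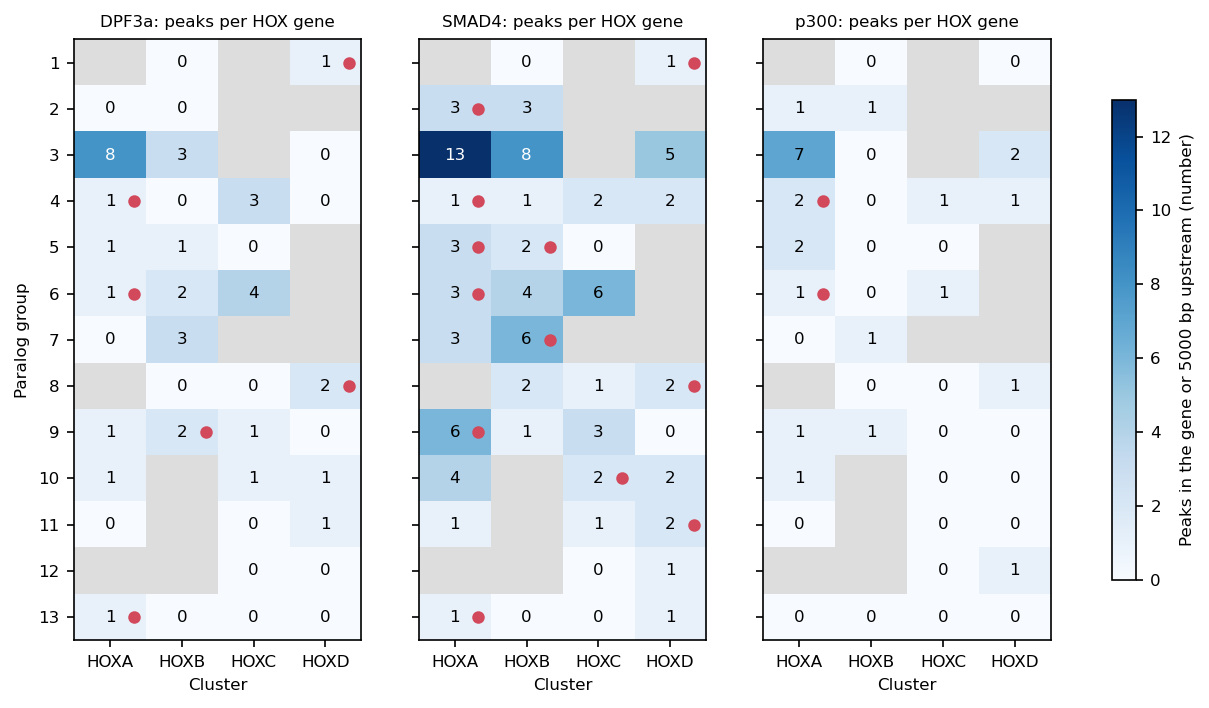
Number of peaks assigned to each HOX gene (summit in the gene or up to 5000 bp upstream), 1 panel per factor, with the cluster on the horizontal and the paralog group on the vertical axis. Grey cells have no gene or are not shown, and red dots mark genes with a summit from 1000 bp upstream to 100 bp downstream of the canonical start. HOXA3 holds the highest count in each panel (8 DPF3a, 13 SMAD4 and 7 p300 peaks), and HOXB13 and HOXC13 are among the genes with none in any panel.

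Close to the transcription start, a smaller share of HOX genes than of all protein-coding genes had a summit. A summit from 1000 bp upstream to 100 bp downstream of the canonical start was found at 13 HOX genes for SMAD4 (33.3%, against 45.7%), at 7 for DPF3a (17.9%, against 29.3%) and at 3 for p300 (7.69%, against 20.3%). The starts of 25 HOX genes held no summit of any list. No share of all protein-coding genes is given for this count or for the combinations of lists that follow. The starts of HOXA4 and HOXA6 were among those that held summits of all 3, and DPF3a and SMAD4 without p300 were found at the starts of HOXA13, HOXD1 and HOXD8. SMAD4 alone was found at the starts of HOXA2, HOXA5, HOXA9, HOXB5, HOXB7, HOXC10 and HOXD11, and DPF3a alone at that of HOXB9. The count depended on the window. Within 2500 bp on both sides, 25 HOX genes had a SMAD4 summit (64.1%, against 61.1% of all protein-coding genes), 8 a DPF3a summit (20.5%, against 46.9%) and 9 a p300 summit (23.1%, against 41.3%), so that the SMAD4 share was then no longer the smaller one.

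Along the clusters, SMAD4 peaks were dense. The 4 windows span 682711 bp and held 10.4 SMAD4 peaks per 100 kb against 1.58 genome-wide, 4.69 DPF3a peaks against 1.75, and 2.93 p300 peaks against 0.693. The HOXA window (chromosome 7, 27072993 to 27220091) held 27 SMAD4, 13 DPF3a and 10 p300 peaks, or 18.4, 8.84 and 6.80 per 100 kb. Of the 29370 tiles of 100 kb in the genome, 3 held as many SMAD4 peaks per 100 kb, 351 as many DPF3a peaks and 79 as many p300 peaks. All 4 windows are longer than a tile, and tiles within the clusters may be among those counted. The HOXD window (chromosome 2, 176072721 to 176210907) held 14 SMAD4, 5 DPF3a and 6 p300 peaks, and 147 tiles reached its SMAD4 density. The HOXB window (chromosome 17, 48508526 to 48748750) held 21, 9 and 3, and the HOXC window (chromosome 12, 53918831 to 54076030) 9, 5 and 1. For HOXC, 1975 tiles reached the SMAD4 density and 11354 the p300 density. The p300 list was dense along the whole of chromosome 7, at 1.24 peaks per 100 kb, and 51.0% of its peaks there touched neither other list, whereas none of the 10 p300 peaks of the HOXA window stood alone.

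**Figure D2:**
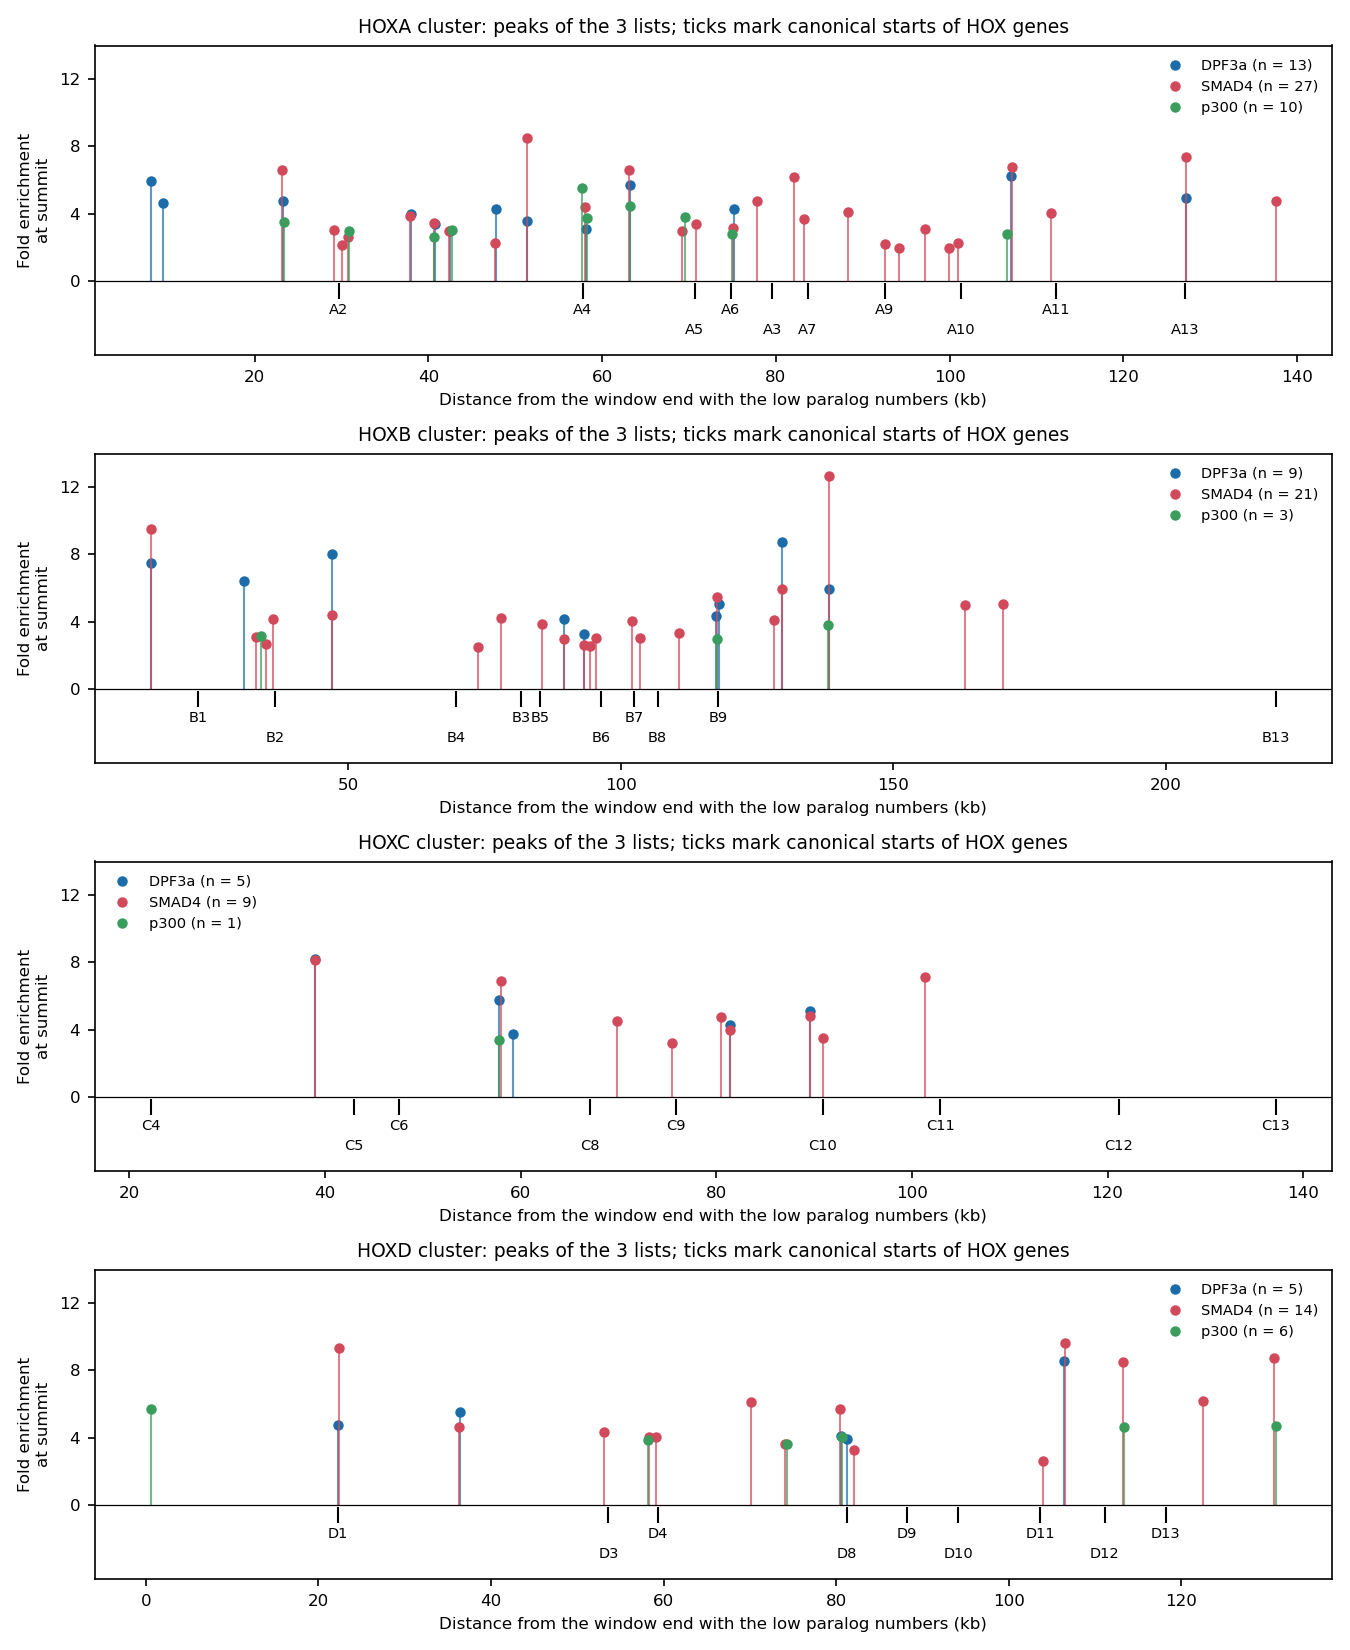
Fold enrichment (vertical axis) of every peak in the windows of the 4 HOX clusters against the distance in kb from the end of the window with the low paralog numbers, with 1 colour per factor and ticks at the canonical starts of labelled HOX genes. SMAD4 peaks, 71 in all, run through the HOXA window, where 27 of them lie, and thin out in the HOXC window, where 9 lie.

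The peaks of the clusters were lower in fold enrichment than those of their lists, but not in reads. Fold enrichment is the height of the summit in reads over the local background, each plus 1. The median fold enrichment was 4.77 for DPF3a (quartiles 4.07 to 5.93, list median 6.70), 4.07 for SMAD4 (3.07 to 5.84, list median 6.30) and 3.68 for p300 (3.02 to 4.14, list median 4.92). It lay below the list median in 27 of 32, 57 of 71 and 18 of 20 peaks. The median summit height was 26 reads against 25 in the list for DPF3a, 61 against 39 for SMAD4 and 32.5 against 23 for p300, and the median −log10 q was 9.60 against 12.8, 16.8 against 18.0 and 7.45 against 6.79. The direction thus turned with the measure, and the local background moved with it: its median was 4.40 reads against 2.82 for DPF3a, 15.4 against 5.16 for SMAD4 and 8.18 against 3.76 for p300. The background exceeded the 95th percentile of the list, which 5% of each whole list exceeds, at 5 of 32 DPF3a peaks, 32 of 71 SMAD4 peaks and 9 of 20 p300 peaks. The part of the background in the lower fold enrichment was not tested beyond these values.

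The high background lay mainly in the HOXA cluster. There its median reached 27.3 reads in the SMAD4, 6.56 in the DPF3a and 12.8 in the p300 peaks, whereas the peaks of chromosome 7 outside the cluster had medians of 6.16, 3.40 and 2.88. The background of 24 of the 27 SMAD4 peaks of HOXA exceeded the 95th percentile of the list, against 6 of 21 in HOXB, 0 of 9 in HOXC and 2 of 14 in HOXD. The highest was 50.7 reads, at a SMAD4 peak of 158 reads at MIR196B, a microRNA gene between HOXA9 and HOXA10. Peaks at the starts of all protein-coding genes had a median background of 7.78 reads for SMAD4, 2.98 for DPF3a and 5.06 for p300. No input library is named, and whether one was used is not stated, so broad binding over the cluster and a region that yields more reads for another reason cannot be told apart.

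**Figure D3:**
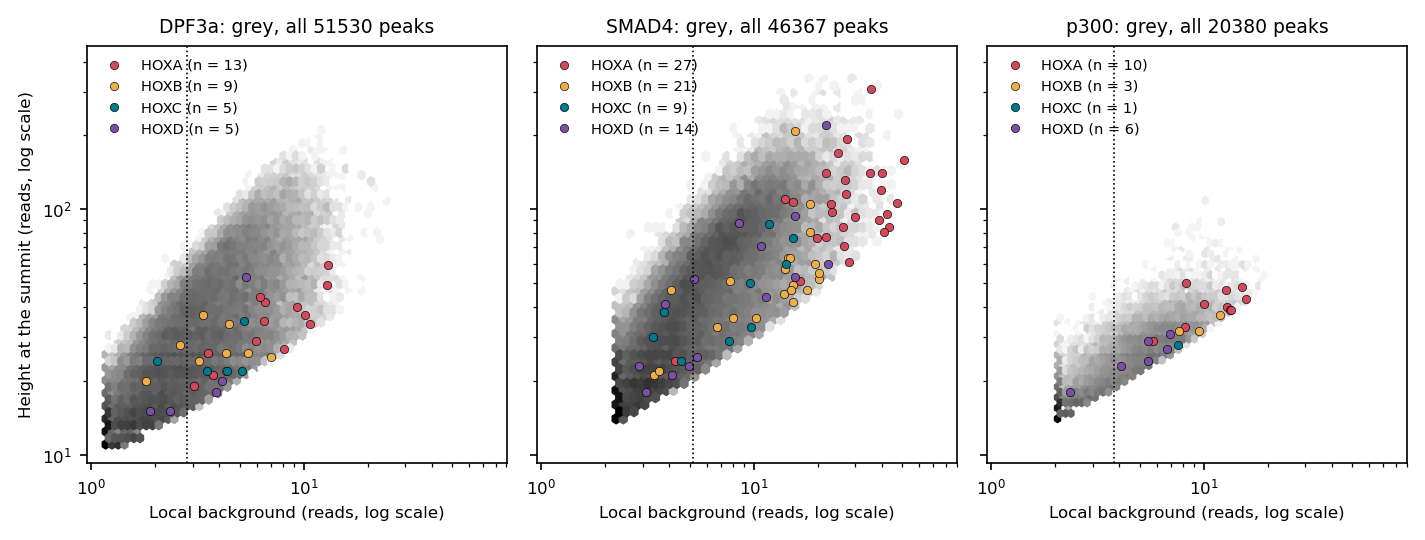
Summit height against local background, both in reads on log axes, for the peaks of the HOX clusters (coloured by cluster) over the whole list of each factor (grey), with a dotted line at the list median of the background. The HOXA peaks lie at the high end of the background axis, with a median of 27.3 reads for SMAD4 against a list median of 5.16.

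Overlapping peaks of the 3 lists merged into 74 sites. SMAD4 stood alone at 36 of them, DPF3a and SMAD4 shared 15, all 3 lists met at 11, SMAD4 and p300 shared 7, DPF3a stood alone at 4, and p300 at 1. Sharing by the stricter rule, in which at least 0.5 of each peak overlapped the other, was less common. By this rule 17 of 32 DPF3a peaks were shared with SMAD4 (53.1%, against 59.3% of the list) and 8 with p300 (25%, against 16.6%). From the side of SMAD4, 17 of 71 peaks were shared with DPF3a (23.9%, against 65.9%) and 13 with p300 (18.3%, against 22.3%). Of the 20 p300 peaks, 8 were shared with DPF3a (40%, against 41.9%) and 13 with SMAD4 (65%, against 50.7%). Only 3 DPF3a peaks were shared with both (9.38%, against 15.2%). No overlap of even 1 bp with another list was seen for 36 SMAD4 peaks (50.7%, against 20.9%), 4 DPF3a peaks (12.5%, against 31.6%) and 1 p300 peak (5%, against 31.3%). The DPF3a and p300 peaks of the clusters thus mostly lay at SMAD4 peaks, while 36 of the 71 SMAD4 peaks had no partner.

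In shared pairs, the DPF3a and SMAD4 summits lay close together. Their median distance was 41 bp in 17 pairs (3 to 120 bp, 49 bp in the whole lists). The SMAD4 and p300 summits were 189 bp apart in 13 pairs (31 to 478 bp, 99 bp in the lists) and the DPF3a and p300 summits 173.5 bp in 8 pairs (15 to 472 bp). The p300 peaks of the clusters were also wider, with a median of 652.5 bp against 478 bp in the list, while DPF3a peaks had 502 bp against 533 bp and SMAD4 peaks 562 bp against 548 bp.

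**Figure D4:**
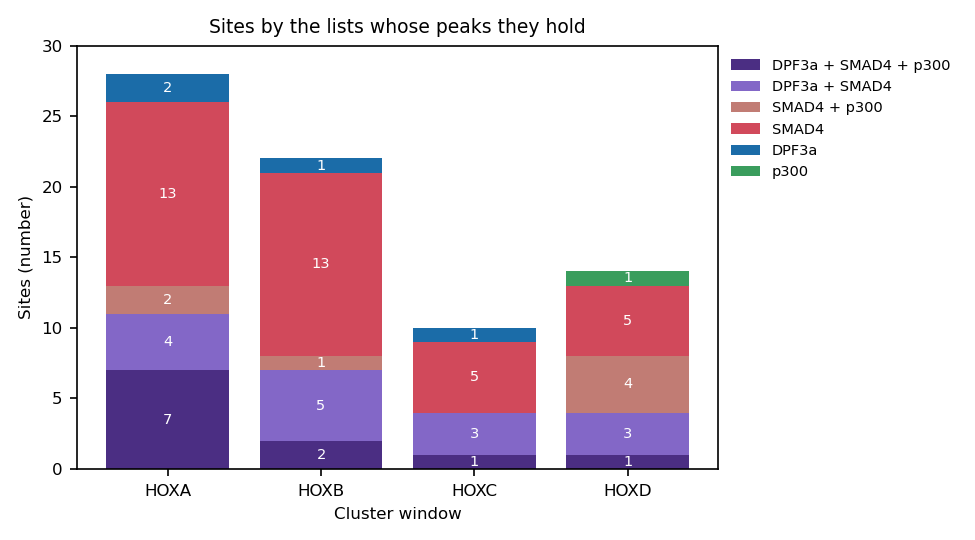
Number of merged sites in each HOX cluster by the lists that meet there, with each stacked segment 1 combination of lists. HOXA has 28 sites, of which 7 hold all 3 lists and 13 SMAD4 alone, while HOXC has 10, of which 1 holds all 3.

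In HOXA the strongest peak was that of SMAD4 in an intron of HOXA3, a gene needed for the thymus and parathyroid, where an exon of the antisense RNA HOXA-AS2 also lies. Its summit, at 27124343, was 310 reads high (95% Poisson interval 276 to 347, counting error only) over a background of 35.5, a fold enrichment of 8.51. Its −log10 q of 170 ranked it 139 of 46367 in the list. The DPF3a summit 3 bp away was 49 reads high with a fold enrichment of 3.6, and no p300 peak was shared. The canonical HOXA3 transcript held a run of further shared sites outside its exons. That at 27113687 lay in an exon of another HOXA3 transcript, and that at 27115413 in an exon of HOXA-AS2. At 27120665 the fold enrichment was 2.24 for SMAD4 and 4.27 for DPF3a, which at 59 reads was the tallest DPF3a peak of the 4 clusters. At 27115413 it was 2.96 for SMAD4, 3.0 for DPF3a and 3.05 for p300, at 27113687 it was 3.44, 3.42 and 2.63, and at 27110892 it was 3.89 for SMAD4 and 3.97 for DPF3a. At these 4 further sites the SMAD4 summits had 96 to 140 reads. Not every shared site of HOXA3 is described here.

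At HOXA2, which specifies the facial skeleton, the SMAD4 summit 350 bp upstream had a fold enrichment of 2.12, and a site 1077 bp upstream was shared by SMAD4 (2.62) and p300 (2.95).

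HOXA4 had the tallest p300 peak of all the clusters, 80 bp past the start in a coding exon, with 50 reads, a fold enrichment of 5.53 and a −log10 q of 18.4. SMAD4 (4.41) and DPF3a (3.10) followed 292 and 345 bp upstream, with another p300 peak (3.72) at 452 bp. At the start of HOXA5, whose loss impairs the lung, the SMAD4 summit had a fold enrichment of 3.41, and at that of HOXA6 the values were 3.15 for SMAD4, 4.31 for DPF3a and 2.81 for p300.

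Over HOXA7, HOXA9 and the start of HOXA10, SMAD4 peaks had no partner. Its peak in a coding exon of HOXA7 had 141 reads and a fold enrichment of 6.18, whereas that at the start of HOXA9, a gene known for its role in leukaemia, had 106 reads over a background of 47.2 and a fold enrichment of 2.22. Upstream of HOXA10, which acts in the uterus, an exon of another HOXA10 transcript held 1 of the 3 sites where a DPF3a peak overlapped both partners by at least 0.5. The SMAD4 summit had 193 reads and a fold enrichment of 6.79, the DPF3a summit 44 reads and 6.25, the highest DPF3a fold enrichment of HOXA, and the p300 summit 39 reads and 2.79. HOXA11, of the kidney paralog group, had a single SMAD4 peak in its coding exon (97 reads, 4.02) and no peak of the other factors. At the start of HOXA13, which shapes the limb ends and the genital tract and lies beside the non-coding RNA HOTTIP, SMAD4 had 110 reads and a fold enrichment of 7.37 and DPF3a 19 reads and 4.93.

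In the HOXB cluster the peak of highest fold enrichment of each factor lay outside the HOX genes. The SMAD4 peak in LINC03057, 20444 bp upstream of the HOXB9 start, had 209 reads (interval 182 to 239) and a fold enrichment of 12.7, the highest of any HOX peak, and its −log10 q of 149 ranked it 225 in the list. DPF3a (24 reads, 5.95) was 4 bp away, and p300 (32 reads, 3.81) was the strongest p300 peak of HOXB. The site 11718 bp upstream of HOXB9 held the DPF3a peak of highest fold enrichment in the clusters, 8.76 with 37 reads (26.1 to 51.0), beside SMAD4 with 51 reads and 5.96. Its sequence held the AP-1 and TEAD matches shown above. Downstream of HOXB1 the shared site had a fold enrichment of 9.49 for SMAD4 (47 reads) and 7.50 for DPF3a (20 reads), at low backgrounds of 4.06 and 1.80 reads, and no HOX gene was assigned this site. A shared site in the HOXB3 record, 10387 bp upstream of the HOXB2 start, had a fold enrichment of 8.01 for DPF3a and 4.42 for SMAD4.

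At the HOXB genes themselves, fold enrichments were lower. Around the start of HOXB9, SMAD4 had 105 reads and a fold enrichment of 5.45, p300 37 reads and 2.95, and a pair of DPF3a peaks 22 and 26 reads and 4.32 and 5.08. The summit of the latter, 251 bp upstream, was the one in the start window, while the SMAD4 and p300 summits lay 145 and 111 bp inside the gene, just past the window. SMAD4 had a fold enrichment of 3.87 at the start of HOXB5 and 3.01 at that of HOXB7. In HOXB6, DPF3a and SMAD4 shared a coding-exon site (4.17 and 2.98) and a site in HOXB-AS3 (3.26 and 2.63). HOXB4, known for expanding blood stem cells, had 1 SMAD4 peak upstream (2.50), and HOXB8 had 2 SMAD4 peaks and none of the others. No peak was assigned to HOXB13, the prostate member, and the SMAD4 peaks in its direction at 48671729 and 48678681 had no partner.

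The HOXC cluster held few peaks. Its strongest DPF3a peak lay in an intron of the HOXC4 record, with 24 reads (15.4 to 35.7) and a fold enrichment of 8.22, 56 bp from a SMAD4 summit of 38 reads and 8.16, the highest SMAD4 value of HOXC. The only p300 peak of the cluster (28 reads, 3.39) lay with DPF3a (35 reads, 5.79) and SMAD4 (87 reads, 6.91) in the stretch shared by the HOXC6 and HOXC4 records, 9109 bp past the start of HOXC8. At HOXC10, a gene of the lumbar spinal cord, SMAD4 had a fold enrichment of 3.49 at the start, and SMAD4 (4.81) and DPF3a (5.09) met 1306 bp inside. SMAD4 was alone within HOXC11, with 30 reads and 7.14. HOXC9, the thoracic member, had DPF3a (4.31) and SMAD4 (4.01) upstream and a SMAD4 peak in its coding exon (3.19). HOXC12, HOXC13, which acts in hair, and HOXC5 had no peak.

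In the HOXD cluster, SMAD4 and DPF3a were strongest between HOXD12 and HOXD11, limb and kidney genes. The SMAD4 summit had 220 reads (192 to 251) and a fold enrichment of 9.63, and its −log10 q of 132 ranked it 377 in the list. The DPF3a summit, 103 bp away, had 53 reads (39.7 to 69.3) and 8.54, and its −log10 q of 31.1 was the highest of any HOX DPF3a peak. No p300 peak was called there. At the start of HOXD11 itself SMAD4 had a fold enrichment of 2.63. At the start of HOXD1, shared with the antisense RNA HAGLR, SMAD4 had 88 reads and 9.31 and DPF3a 15 reads and 4.76.

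At HOXD8 all 3 factors were present. SMAD4 had 94 reads and a fold enrichment of 5.72, p300 31 reads and 4.03, and the DPF3a peaks 4.10 and 3.91, of which the second, upstream of the start, was in the start window with another SMAD4 peak (3.25). SMAD4 and p300 met without DPF3a at 4 HOXD sites, against 2 in HOXA, 1 in HOXB and 0 in HOXC. Of these, the site upstream of HOXD12 had a fold enrichment of 8.49 for SMAD4 and 4.63 for p300. The site beyond HOXD13, which lies within the gene EVX2, had 8.75 and 4.72, and that at the upstream end of HOXD3 3.64 and 3.65. In HOXD4, SMAD4 and p300 both had a peak (4.05 and 3.87) but overlapped by less than 0.5. The only p300 peak of the clusters without a partner (18 reads, 5.69) lay 21661 bp past the start of HOXD1. HOXD13, the outermost limb gene, had 1 SMAD4 peak upstream (6.19), and HOXD9 had none.

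The sequence under the HOX peaks was rich in GC. In 501-bp windows around the summits, the median GC content of DPF3a peaks was 59.8% (list 46.3%), that of SMAD4 peaks 61.1% (list 51.1%) and that of p300 peaks 64.0% (list 55.5%). The observed over expected ratio of CpG dinucleotides was 0.641, 0.753 and 0.705 against 0.226, 0.284 and 0.481. The median distance to the nearest canonical HOX start was 5492 bp for DPF3a summits, 2065 bp for SMAD4 summits and 2452 bp for p300 summits. Summits in coding exons numbered 2, 12 and 3.

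Matches to AP-1, the FOS and JUN factor, were fewer than in the lists. Within 50 bp of the summit, 2 of 32 DPF3a peaks (6.25%, against 22.0%), 3 of 71 SMAD4 peaks (4.23%, against 15%) and 0 of 20 p300 peaks (against 3.61%) held one. These were the sites upstream of HOXB9, in HOXC4 and between HOXD12 and HOXD11. The SMAD GC element was found at 3 DPF3a (9.38%, against 3.33%), 10 SMAD4 (14.1%, against 5.75%) and 4 p300 summits (20%, against 8.34%). RUNX matches stood at 8 DPF3a (25%, against 17.7%), 5 SMAD4 (7.04%, against 16.6%) and 3 p300 summits (15%, against 10.6%), and TEAD matches at 5 DPF3a (15.6%, against 8.28%), 2 SMAD4 (2.82%, against 5.95%) and 0 p300 summits (against 2.61%). Within 100 bp, RUNX matches stood at 9 DPF3a (28.1%, against 29.2%), 11 SMAD4 (15.5%, against 28.1%) and 3 p300 summits (15%, against 20.2%). Each RUNX share was then below that of its list. The GC-rich SMAD element and the AP-1 sequence differ in base composition, whose part in these shares was not tested. The SMAD palindrome and the CTCF consensus were found within 50 bp of no HOX summit, against 0.0294% to 0.239% of the lists for the palindrome and 0.549% to 1.16% for CTCF.

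Within 50 bp of the summit, the retinoic acid repeat was matched at 34 DPF3a and 38 SMAD4 summits of the whole lists. Of these, 0 and 1 lay in the HOX clusters. Within 100 bp, it was matched at 84 DPF3a summits of the whole list (0.163%) and 77 SMAD4 summits (0.166%), and of these 2 and 2 lay in the HOXB cluster. Both were sites shared by DPF3a and SMAD4. The match downstream of HOXB1 lay at 48522274 to 48522290, 12 bp from the SMAD4 summit, and that in the HOXB3 record upstream of HOXB2 at 48555430 to 48555446, both on the minus strand. A match describes the letters of the reference and does not show binding of a receptor.

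Genes that act with the HOX genes were examined under the same rule, by which 65.8% of all protein-coding genes had a DPF3a, 72.3% a SMAD4 and 51.6% a p300 peak. A site of all 3, that is a DPF3a peak shared with both other lists by the stricter rule, was held by 29.9% of all protein-coding genes and by 3 HOX genes (HOXA3, HOXA9 and HOXA10). Of 15 Polycomb genes, 12 had a DPF3a, 13 a SMAD4 and 12 a p300 peak, and 9 (PHC2, RNF2, EZH2, BMI1, EED, PHC1, SUZ12, EZH1 and CBX2) held a site of all 3. Of 9 Trithorax genes and Polycomb antagonists, 8, 9 and 5 had a peak, with no site of all 3. Of the 9 HOX cofactors of the PBX, MEIS and PKNOX families, 6, 7 and 5 had a peak, and PKNOX1 was among those with a site of all 3. Of 12 retinoic acid genes, 7, 8 and 5 had a peak, and RXRA, RARA (both receptors) and ALDH1A2 (a synthetic enzyme) a site of all 3. Among homeobox genes other than HOX genes, peaks were seen at 3, 5 and 2 of 13 related genes, at 3, 5 and 2 of 6 DLX genes and at 2, 2 and 1 of 6 IRX genes, with a site of all 3 at MEOX2, DLX1 and DLX4. EVX2, 1 of the 13 related genes, lies in the HOXD window. Its 2 SMAD4 peaks and 1 p300 peak are also among the peaks of that window. In all, 41 of these 70 genes had a DPF3a peak (58.6%, against 65.8%), 49 a SMAD4 peak (70.0%, against 72.3%) and 32 a p300 peak (45.7%, against 51.6%), each share below that of all protein-coding genes, and genes of this set differ widely in length.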

How the data were processed

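ChIP-seq of 3 factors (DPF3a, SMAD4, p300) in 786-O cells comprised 2 libraries and 1 deposited peak list each, and sample titles gave the factor. The methods and the submitters' processing notes name cutadapt, Bowtie2 2.3.5.1, Picard and MACS2 2.2.5 with hg38: the authors trimmed and mapped reads, removed low-quality, mitochondrial and duplicate reads, and called peaks. How the libraries were combined is not stated. The deposited score equals 10 times the −log10 q, rounded down, and the lowest score was 51. As deposited, fold enrichment is a ratio, summit height plus 1 over local background plus 1. Deposited −log10 p and −log10 q values compare height with that background. From fold enrichment and −log10 p, height in whole reads and background were computed with Python 3.11.15, pandas 2.3.3 and scipy 1.17.1, after a check on simulated peaks. The recovered values gave back −log10 p within 8.6e-04. Library totals are not in the peak lists, so depth is shown by these heights, whose precision is counting error only.

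Genes came from GENCODE 44, with names and lengths of all 54 sequences found in the reference. Sequences were read from hg38 with pysam 0.24.0, and figures drawn with matplotlib 3.10.9. The members and lists were chosen with earlier results of these data known. Named were HOX genes with a summit at the canonical start, sites shared by at least 2 lists, the peak of highest fold enrichment per list and cluster, and members of the related lists with a site of all 3 factors. Other peaks were named after their values were seen. Some items are not reported here.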

Additional observations from a re-analysis of the deposited data

How the results depend on the processing

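Of 81 alternative values, 40 stayed within 1.5 times the value given, or in its direction, 37 moved further and 4 turned. No paired analysis was possible because the data hold 1 list per factor made from both libraries, which also precludes leaving out a replicate. The threshold mattered most. With scores above 100, HOX genes with a peak numbered 10 for DPF3a, 29 for SMAD4 and 2 for p300. With scores above 200 they numbered 3, 21 and 0 for DPF3a, SMAD4 and p300. Above 100, 45.2%, 68.1% and 17.7% of all protein-coding genes had a DPF3a, SMAD4 and p300 peak, and above 200, 25.1%, 60.2% and 1.88%. The SMAD4 share of HOX genes thus lay above that of all genes with scores above 100 (74.4%) and below it with scores above 200 (53.8%). Cluster peaks fell to 15, 46 and 1 above 100, and to 2, 28 and 0 above 200. The sizes of the whole lists above these scores are not given beside them. Lists of equal size, added after the data were seen, gave 7 DPF3a and 21 SMAD4 genes and 7 and 28 cluster peaks. Without the upstream 5000 bp, 12 HOX genes had a DPF3a peak (30.8%, against 54.55% of all protein-coding genes). Over canonical transcripts, 11 had a p300 peak (28.2%, against 49.6%) and 30 a SMAD4 peak (76.9%, against 70.8%).

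With 1 bp of overlap, DPF3a shared 28 peaks with SMAD4, 12 with both, and SMAD4 20 with p300. With summits within 200 bp, DPF3a shared 26 with SMAD4 and 7 with both. Above 100 in every list, DPF3a shared 9 with SMAD4, 0 with p300 and 0 with both, and SMAD4 1 with p300. Shares of the whole lists under these rules are not given, so these counts describe the HOX peaks only. Over every transcript start, HOX genes with a summit numbered 12 (DPF3a), 21 (SMAD4) and 5 (p300), with no share of all protein-coding genes given. Within 1000 bp on both sides they came to 22 for SMAD4 (56.4%, against 57.8% of all protein-coding genes) and 5 for p300 (12.8%, against 39.3%). Within 2500 bp they came to 25 (64.1%, against 61.1%) and 9 (23.1%, against 41.3%). Above 100 they came to 1 for DPF3a and 1 for p300. AP-1 matches within 100 bp stood at 4 of 32 DPF3a summits (12.5%, against 34.2% of the list). Of the 70 related genes, 10 had a p300 peak above 100, against 17.7% of all protein-coding genes. The ratio of the HOX median to the list median was 0.712, 0.645 and 0.748 by fold enrichment, and turned by height in reads to 1.04, 1.56 and 1.41, and for p300 by −log10 q to 1.10. Median heights of the lists were 25, 39 and 23 reads for DPF3a, SMAD4 and p300, and library depth was not measured.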
